A study of Mus musculus with 12 samples.

Results

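A set of 10 genes that load and present antigen on MHC class I or on the lipid-presenting molecule CD1d were followed across intestinal dendritic cells (DCs), namely Cd1d1, B2m, Tap1, Tap2, Tapbp, Tapbpl, Psmb8, Psmb9, Nlrc5 and Erap1. The 10 genes were taken as a named list, by symbol, from the 53801 gene identifiers of the count files, and all 10 were among the 20580 genes that reached 5 counts in 1 sample or more. The study asked how expression profiles of gut DCs change when Cbfb, the partner subunit of the Runx transcription factors, is deleted. CD103+CD11b- and CD103-CD11b+ DCs were sorted by flow cytometry from the gut of wild type (WT) mice and of mice labelled Cbfb-cKO, which carry floxed Cbfb alleles and a CD11c-Cre transgene. All 4 groups are of mixed background and have 3 samples each, 12 in all. The samples of a group were sorted from different mice. The CD11c promoter drives the Cre in DCs, and the study also found recombination in some gut T cells. The labels do not give the age of these mice, and the study names an age in weeks for its analyses of gut DCs without tying it to the sequenced samples. Neither source states whether the sequenced WT mice carried the Cre transgene, or which samples of the 2 subsets came from the same mouse.

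MHC class I molecules show peptides from inside the cell to CD8+ T cells. The proteasome cuts proteins into peptides, the TAP transporter carries them into the endoplasmic reticulum (ER), an ER peptidase trims them, and tapasin helps to fit them onto the heavy chain, which pairs with beta-2 microglobulin. CD1d pairs with the same light chain but presents lipids to natural killer T cells, and it is filled in endosomes and not through TAP. Intestinal CD103+CD11b- DCs correspond to the conventional DC1 lineage, which is known for cross-presentation of outside antigen on MHC class I.

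Reads counted on genes ranged from 2161929 to 5863484 per sample, and levels are given as counts per 1000000 reads (CPM) scaled by the TMM method. The lowest 2 totals were both of Cbfb-cKO replicate 3, at 2650949 for CD103+CD11b- and 2161929 for CD103-CD11b+ DCs. The sorted subsets differed in markers of conventional DC1 and DC2 cells. The DC1 list, with Xcr1, Clec9a, Irf8 and 6 others, was lower in CD103-CD11b+ DCs for 9 of 9 genes in both genotypes, and its summed level was 3324 to 5668 CPM in the CD103+CD11b- samples and 524 to 1034 CPM in the CD103-CD11b+ samples. Of 6 CD11b+ DC2 genes, 3 were called higher in CD103-CD11b+ DCs of WT and 5 in those of Cbfb-cKO mice. In WT mice that list summed to 976 to 1032 CPM in CD103-CD11b+ and 366 to 626 CPM in CD103+CD11b- samples. Itgae, a gene of the DC1 list that encodes CD103, was not absent from the CD103- sort, at 138 to 281 CPM in WT and 30.6 to 81.5 CPM in Cbfb-cKO samples. Reads over the whole Cbfb gene did not separate the genotypes, with 199 to 228 CPM in WT and 215 to 290.2 CPM in Cbfb-cKO CD103+CD11b- DCs and 161 to 217 against 169.6 to 273 CPM in CD103-CD11b+ DCs, so they do not check the labels, and genotypes are named as labelled. In bulk samples, fewer cells of a type and less RNA per cell cannot be told apart.

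Cd1d1 (ENSMUSG00000028076) lies on chromosome 3 of GRCm38 from 86995834 to 86999441 on the minus strand and has a close paralog, Cd1d2, next to it at 86986551 to 86989780. The transcripts Cd1d1-201 and Cd1d2-201 matched at 1157 of 1198 aligned bases (96.6%). The longest stretch without a difference, 242 bases of coding sequence, is shown because reads from inside it fit both genes equally well.
Cd1d1-201 bases 883 to 1124 (GENCODE M21): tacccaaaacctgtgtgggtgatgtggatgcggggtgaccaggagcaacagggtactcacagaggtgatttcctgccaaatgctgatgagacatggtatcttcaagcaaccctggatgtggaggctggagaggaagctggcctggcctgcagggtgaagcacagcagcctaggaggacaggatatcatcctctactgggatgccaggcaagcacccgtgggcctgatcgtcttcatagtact
The authors dropped reads of low mapping quality, which removes reads that fit 2 places equally, so reads lying wholly in such stretches were not counted. Cd1d2 itself had 0 to 11 counts per sample, against 42 to 657 for Cd1d1.

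Psmb9, Tap1, Psmb8 and Tap2 lie in this order within 34.3 kb on chromosome 17, from 34181987 to 34216321, and Tapbp lies on the same chromosome at 33915899 to 33929292. Tap1 and Psmb9 are read away from each other from neighbouring starts, and in the annotation their exons share 212 bases. Counting ignored strand and set aside reads on bases of 2 genes, so reads from that overlap were counted for neither gene. B2m lies on chromosome 2 at 122147686 to 122153083, Tapbpl on chromosome 6 at 125223933 to 125231860, Nlrc5 on chromosome 8 at 94434356 to 94527272 and Erap1 on chromosome 13 at 74639568 to 74693201. Overlapping genes touched 904 of the exon bases of Tapbp (antisense Gm19412), 834 of Erap1 (Cast), 533 of Tap2 (Gm15821), 498 of Psmb8 (Gm20496) and 78 of Nlrc5 (9330175E14Rik).

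RefSeq promoter windows of 250 bases before to 50 after the start were at hand for 6 of the 10 genes (B2m, Tap1, Tapbp, Psmb8, Psmb9 and Erap1, GRCm38.p6). The stretch upstream of B2m is shown because B2m is the light chain of both class I and CD1d, and the letters of an interferon-response type motif (2 runs of GAAA set 2 bases apart) and of a CCAAT box, both described for class I genes, occur in it. Capitals mark the former, which starts 139 bases before the start site, and the reverse complement of CCAAT, which starts 53 bases before it.
B2m chr2:122147437-122147685 (plus strand, GRCm38.p6): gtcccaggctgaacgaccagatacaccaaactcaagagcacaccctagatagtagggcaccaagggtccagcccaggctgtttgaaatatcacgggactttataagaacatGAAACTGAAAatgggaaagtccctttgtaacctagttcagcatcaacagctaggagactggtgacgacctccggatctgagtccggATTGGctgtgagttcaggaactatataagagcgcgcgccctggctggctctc
The spaced GAAA motif occurred in 3.44% of the 32851 promoter windows in the table on either strand, and among the members it was found in the windows of B2m and Erap1. CCAAT occurred in 37.4% of all windows, and in those of B2m, Tap1, Psmb9 and Tapbp. The core letters of the Runx motif, TGTGGT, occurred in 16.8% of all windows and, among the 6, in that of Tapbp. A letter match is no evidence of binding.

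**Figure D1:**
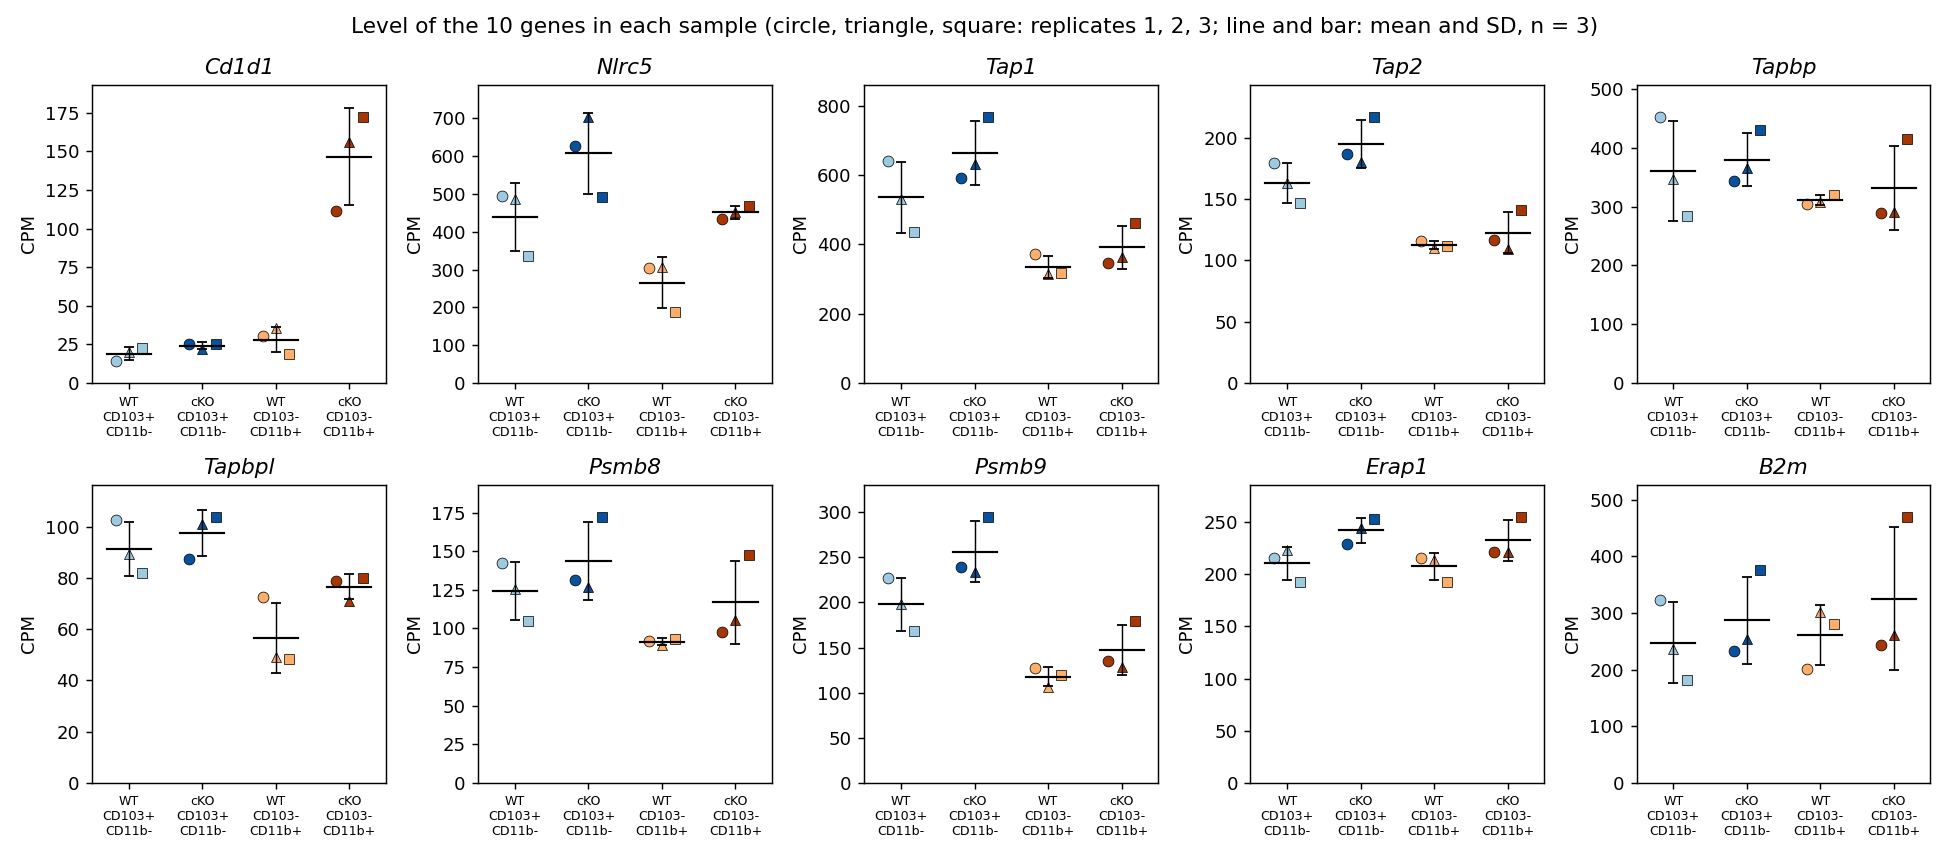
Level of each of the 10 genes (CPM, y axis from 0) in the 12 samples, by genotype and subset on the x axis, with symbols for replicates 1 to 3 and the mean and SD over 3 samples as line and bar. Cd1d1 stood at 111 to 172 CPM in Cbfb-cKO CD103-CD11b+ DCs and at 14.4 to 35.3 CPM in the 9 other samples, while Tap1, Tap2 and Psmb9 stood lower in CD103-CD11b+ than in CD103+CD11b- DCs of the same genotype.

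The plot of the 10 genes by sample shows that Cd1d1 was high in Cbfb-cKO CD103-CD11b+ DCs. Tap1, Tap2 and Psmb9 were lower in CD103-CD11b+ than in CD103+CD11b- DCs in both genotypes, and Tapbpl and Nlrc5 were so in WT mice. Psmb8, B2m, Tapbp and Erap1 showed no called difference in any comparison. Divided by exon length, the mean over all 12 samples was highest for B2m, at 325 CPM per kb of exon, followed by Tapbp at 95.3, Tap1 at 87.9, Nlrc5 at 51.9, Psmb9 at 49.2, Tap2 at 39.2, Psmb8 at 35.2, Tapbpl at 34.3, Erap1 at 30.7 and Cd1d1 at 21.2 CPM per kb. Exon length was that of all annotated exons of a gene merged, such as 860 bases for B2m and 3660 for Psmb9. The order between genes thus depends on the annotation. It also pools groups in which Cd1d1 differed. By group means Cd1d1 was the lowest member in 3 groups, at 7.40 to 10.9 CPM per kb, but in Cbfb-cKO CD103-CD11b+ DCs it stood at 57.1 ± 12.3 CPM per kb (SD, n = 3), between Tap1 at 71.5 ± 11.4 and Nlrc5 at 53.2 ± 2.06. B2m stood apart, with 210.6 to 547 CPM per kb in single samples, and the next highest sample of any member was Tap1 at 140.3. Each other neighbouring pair in the pooled order overlapped in its range over the 12 samples.

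The quasi-likelihood F-test of edgeR was run on a single model with all 4 groups, p-values were adjusted after Benjamini and Hochberg over all 20580 genes, and a gene is called at an adjusted p under 0.05. Between genotypes, 0 of the 10 members were called in CD103+CD11b- DCs, where 1.02% of all tested genes were called. At an unadjusted p under 0.05, 2 of the 10 passed (Psmb9 and Nlrc5), beside 10.5% of all genes, and DESeq2 also called 0 of 10, beside 4.19%. In CD103-CD11b+ DCs, 1 of the 10 was called, Cd1d1, which was higher in Cbfb-cKO, beside 1.61% of all genes called in either direction and 1.11% called higher. At an unadjusted p under 0.05, 3 of the 10 passed (Cd1d1, Nlrc5 and Tapbpl), beside 17.4%. The log2 fold change between Cbfb-cKO and WT was above 0 for 10 of 10 members in both subsets, with a median of 0.24 in CD103+CD11b- and 0.32 in CD103-CD11b+ DCs, beside medians of -0.02 and -0.06 over all tested genes. Of all tested genes, 46.7% and 44.8% were above 0. With library total as a covariate 9 of 10 members were above 0 in both subsets, with medians of 0.18 and 0.19, and Tapbp was at -0.016 and -0.018. Without Cbfb-cKO CD103+CD11b- replicate 3, 8 of 10 were above 0 in this subset, with a median of 0.17, and without Cbfb-cKO CD103-CD11b+ replicate 3, 8 of 10 were above 0 there, with a median of 0.12. Members without overlap of the 3 and 3 samples were 3 of 10 in CD103+CD11b- DCs, all higher in Cbfb-cKO, beside 7.51% of all genes, and 5 of 10 in CD103-CD11b+ DCs, beside 9.75%. The 2 genotype comparisons share no samples. They share 1 model and its normalization, and their samples may come from the same mice, so they are not taken as independent.

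Between subsets, 5 of the 10 members were called lower in CD103-CD11b+ than in CD103+CD11b- DCs of WT mice (Tap1, Tap2, Tapbpl, Psmb9 and Nlrc5) and 0 higher, where 7.25% of all tested genes were called lower, 11.8% higher and 19.1% in either direction. In Cbfb-cKO mice, 3 members were called lower (Tap1, Tap2 and Psmb9), beside 7.06% of all genes, and 1 higher (Cd1d1), beside 9.32%, or 16.4% in either direction. Members without overlap were 6 of 10 in WT mice, all lower, beside 16.7% of all genes, and in Cbfb-cKO mice 5 of 10 lower, beside 15.6%, and 1 higher, beside 18.4%. The median log2 difference of the 10 genes between subsets was -0.49 in WT and -0.32 in Cbfb-cKO mice, beside 0.07 and 0.11 over all tested genes. The subsets also differed in markers of other cells, with 6 of 10 macrophage genes called higher in CD103-CD11b+ DCs of WT and 7 of 10 in those of Cbfb-cKO mice, and 2 and 7 of the 12 B-cell genes. Of 6 plasmacytoid DC genes, 3 were called lower in CD103-CD11b+ DCs of WT and 1 in those of Cbfb-cKO mice. Of 8 epithelial genes, 3 and 1 were called higher. The part of such cells in the members' differences was not tested. The WT count is sensitive to single samples. Without replicate 1 or without replicate 2 of the WT CD103+CD11b- DCs, Psmb9 was the 1 member called, beside 8.14% and 6.88% of all genes. Without replicate 2 of the WT CD103-CD11b+ DCs 3 members were called, beside 10.9%, and without replicate 3 of that group 2 were, beside 13.1%. In Cbfb-cKO mice Cd1d1, Tap1, Tap2 and Psmb9 stayed called whichever sample was left out.

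**Figure D2:**
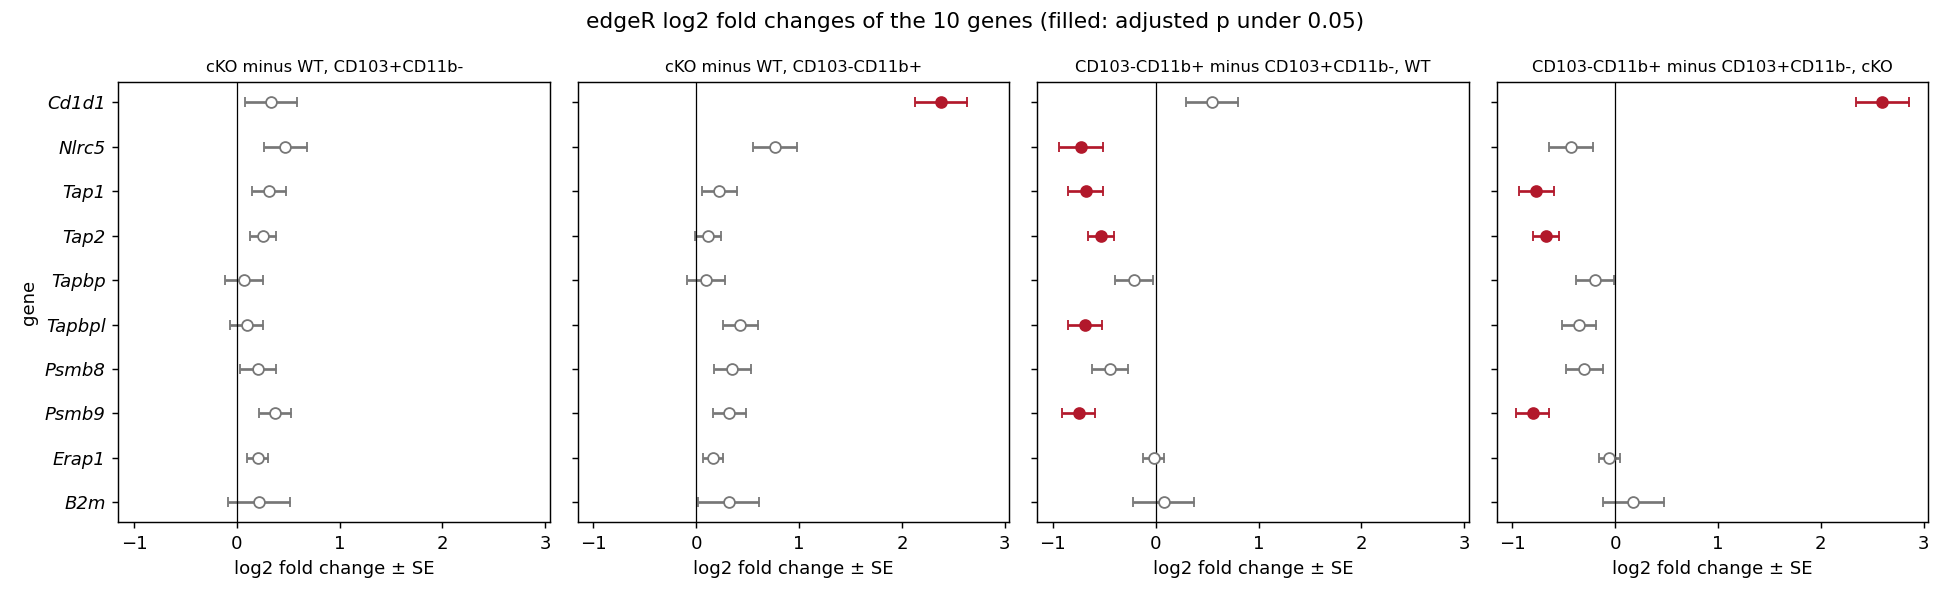
Log2 fold change from edgeR (x axis, with standard error as bar) of each of the 10 genes (y axis) in 4 comparisons, with filled symbols for an adjusted p under 0.05. Cd1d1 is the filled symbol at the right of both comparisons that involve Cbfb-cKO CD103-CD11b+ DCs, and Tap1, Tap2 and Psmb9 are filled on the left of both subset comparisons.

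Cd1d1 was 5.21-fold higher in Cbfb-cKO than in WT CD103-CD11b+ DCs and was not called in CD103+CD11b- DCs. In WT CD103-CD11b+ DCs its level was 30.1, 35.3 and 18.9 CPM, and in Cbfb-cKO it was 111, 156 and 172 CPM. The lowest Cbfb-cKO sample was more than 3 times the highest WT sample, and the groups did not overlap. The means were 28.1 ± 8.39 and 147 ± 31.6 CPM (SD, n = 3), and the log2 fold change was 2.38 (SE 0.25, edgeR adjusted p = 0.0014). The call held under all 20 alternatives to this fit, with log2 fold changes of 2.18 to 2.58.

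In CD103+CD11b- DCs, Cd1d1 was at 14.4, 19.9 and 22.8 CPM in WT and 25.5, 21.7 and 25.4 CPM in Cbfb-cKO samples. These groups overlapped, and the log2 fold change of 0.34 (SE 0.25, edgeR adjusted p = 0.776) was not called. The difference between the 2 genotype effects was 2.04 on the log2 scale (SE 0.35, edgeR adjusted p = 0.0339), and it was the 1 of 10 members called, beside 0.651% of all genes. That call rests on a narrow margin, since its adjusted p rose above 0.05 in 8 of the 12 fits that each left out 1 sample and with library total as a covariate, to at most 0.1005, while the difference itself stayed between 1.83 and 2.23. WT samples of the 2 subsets overlapped for Cd1d1, with a log2 difference of 0.55 (SE 0.25, edgeR adjusted p = 0.147). In Cbfb-cKO mice CD103-CD11b+ DCs had the higher level, by 2.60 (SE 0.26, edgeR adjusted p = 6.96e-05).

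Cd1d2, the paralog, had 6, 11 and 4 counts in the 3 Cbfb-cKO CD103-CD11b+ samples and 0 to 3 counts in the 9 others. These counts are near the 3 counts taken as the floor per sample, so no fold is given, although the subset difference in Cbfb-cKO mice passed the test (edgeR adjusted p = 0.0386). The call was lost in 10 of 19 alternatives, at an adjusted p of up to 0.114.

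CD1d is also known on B cells and macrophages, so their markers are given beside it. The 12-gene B-cell list had a summed level of 425.6 to 858 CPM in WT and 836 to 1246 CPM in Cbfb-cKO CD103-CD11b+ DCs, and 3 of its 12 genes were called higher in Cbfb-cKO (Ms4a1, Cd22 and Bank1). Of the 12, 10 had a log2 fold change above 0 and 2 below 0, without a call, namely the B-lineage factor Ebf1, at 53.6 to 205 CPM in WT and 8.16 to 86.9 CPM in Cbfb-cKO samples, and the antibody joining chain Jchain, at 255 to 473 and 227 to 476 CPM. Bank1, a B-cell scaffold protein, was at 24.7, 41.6 and 14.3 CPM in WT and 213, 214 and 174 CPM in Cbfb-cKO CD103-CD11b+ DCs. Cd22, a B-cell lectin, was at 22.4 to 34.3 CPM in WT and 79.0 to 136 CPM in Cbfb-cKO samples, and Fcer2a, which encodes CD23, was at 1.96 to 10.3 and 26.0 to 64.7 CPM. Bank1, Cd22 and Fcer2a were higher in all 3 Cbfb-cKO samples than in any WT sample of this subset. In CD103+CD11b- DCs, where Cd1d1 was not called, Bank1 was also called higher, at 12.7 to 21.3 CPM in WT and 73.1 to 87.7 CPM in Cbfb-cKO samples (2.15, edgeR adjusted p = 0.0121), and 9 of the 12 B-cell genes had a log2 fold change below 0. The B-lineage factor Pax5 was at 60.8, 14.0 and 0 CPM in the 3 Cbfb-cKO CD103-CD11b+ samples in which Cd1d1 was at 111, 156 and 172 CPM.

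Ms4a1, which encodes CD20, was at 91.1, 84.5 and 43.3 CPM in these samples and 2.04 to 7.44 CPM in their WT counterparts. The 10-gene macrophage list summed to 667 to 996 CPM in WT and 749 to 978 CPM in Cbfb-cKO CD103-CD11b+ DCs, ranges that overlapped, and 1 of its 10 genes was called higher. That gene was Adgre1, which encodes F4/80, at 50.1, 76.0 and 29.7 CPM in WT and 139.9, 237 and 215 CPM in Cbfb-cKO samples. The part of other cell types in the Cd1d1 level was not tested beyond these values.

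**Figure D3:**
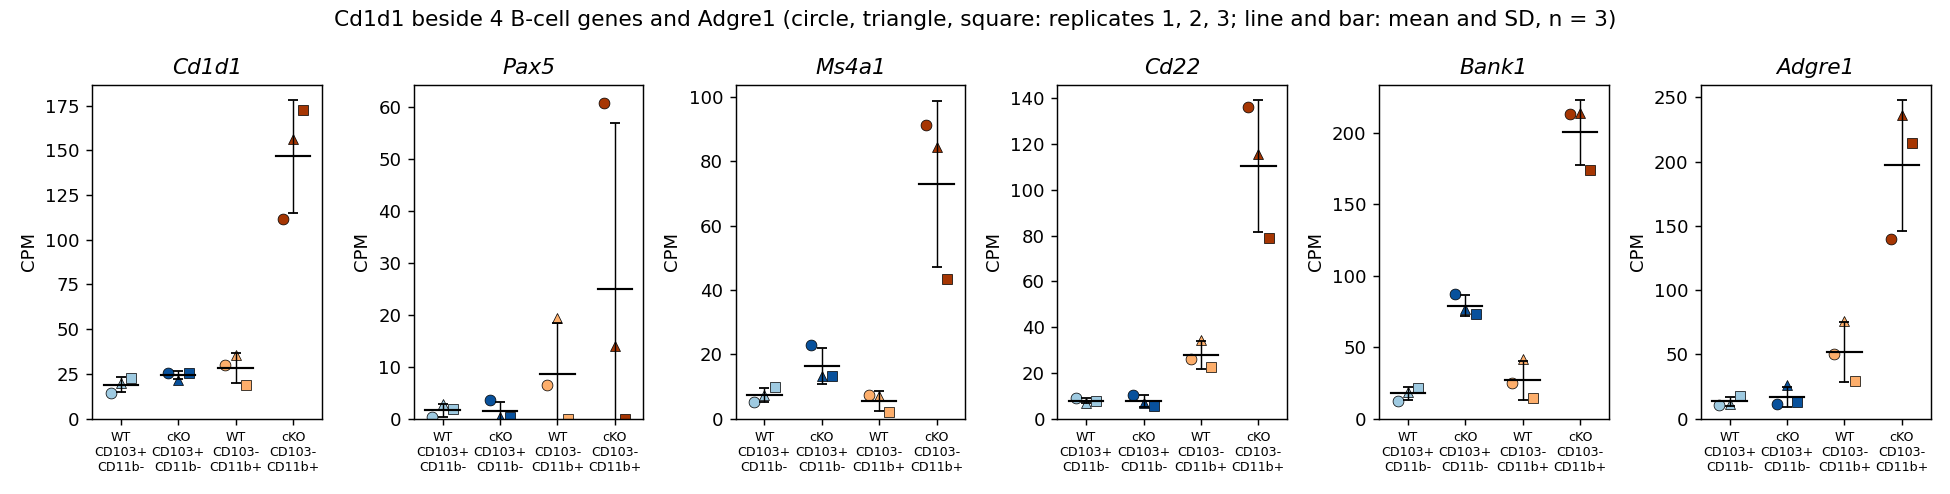
Levels (CPM, y axis from 0) of Cd1d1, 4 B-cell genes and the macrophage gene Adgre1 in the 12 samples by group (x axis), with symbols for replicates 1 to 3 and the mean and SD over 3 samples. In Cbfb-cKO CD103-CD11b+ DCs, Bank1 stood at 174 to 214, Cd22 at 79.0 to 136 and Ms4a1 at 43.3 to 91.1 CPM, all above their WT samples of this subset, while Pax5 ran from 60.8 CPM to 0.

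The genes whose log2 CPM followed Cd1d1 most closely over the 12 samples were Slc27a2 (Pearson r = 0.98), a fatty acid transport protein, Man2a1 (0.98), a Golgi mannosidase, the antisense RNA Gm45615 (0.97), the cytokine Il18 (0.97) and the lincRNA Gm34907 (0.96). These r values describe 12 samples of 4 groups that share their conditions, so no p is given. Mean levels in the order WT CD103+CD11b-, Cbfb-cKO CD103+CD11b-, WT CD103-CD11b+ and Cbfb-cKO CD103-CD11b+ were 1.48, 4.57, 4.44 and 32.5 CPM for Il18, with SDs of 0.696, 1.35, 1.84 and 2.73 (n = 3). Slc27a2 was at 0.13, 0.155, 0.822 and 39.3 CPM in the same order, with SDs of 0.118, 0.135, 0.468 and 15.9. By rank correlation 2 of these 5 genes were among the first 5, while Slc27a2 and Gm34907 stood at ranks 136 and 213. In the other groups their means were at most 0.822 and 0.744 CPM. The search was limited to genes kept by the filterByExpr filter of edgeR, which these 2 passed through Cbfb-cKO CD103-CD11b+ DCs alone. Their r thus describes 1 high group. Gm34907 was not called between genotypes in that subset (edgeR adjusted p = 0.076).

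Genes of CD1d lipid loading and trafficking, a list of 13 chosen from textbook roles, held no called gene between genotypes in either subset. In WT mice 3 of the 13 were lower in CD103-CD11b+ DCs, namely the AP-3 adaptor subunits Ap3d1 (-0.68, edgeR adjusted p = 0.00627) and Ap3b1 (-0.44, 0.0148), which route cargo to lysosomes, and Npc2 (-0.89, 0.0154), a lysosomal sterol carrier. In Cbfb-cKO mice Ap3d1 was again lower in CD103-CD11b+ DCs (-0.80, edgeR adjusted p = 0.00164), and Gla, the lysosomal alpha-galactosidase, was higher (1.95, 0.0421), a call lost in 7 of 21 alternatives, at an adjusted p of up to 0.144. The levels of Ap3d1 were 471 to 531 CPM in WT and 518 to 589.8 CPM in Cbfb-cKO CD103+CD11b- DCs, against 281 to 336 and 275 to 373 CPM in CD103-CD11b+ DCs.

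Nlrc5, the transactivator of MHC class I genes, was lower in CD103-CD11b+ than in CD103+CD11b- DCs of WT mice. WT CD103+CD11b- samples had 494, 487 and 335 CPM and WT CD103-CD11b+ samples 303, 306 and 187 CPM, and the lowest of the former was above the highest of the latter. The log2 difference was -0.73 (SE 0.21, edgeR adjusted p = 0.037), and the call was lost in 5 of 20 alternatives, with an adjusted p of up to 0.122. In Cbfb-cKO mice the levels were 628, 704 and 492 CPM in CD103+CD11b- and 433, 453 and 468 CPM in CD103-CD11b+ DCs. Here too the groups did not overlap, but the log2 difference of -0.43 (SE 0.21, edgeR adjusted p = 0.189) was not called. With the replicate numbers as a block it was called (-0.42, edgeR adjusted p = 0.0407), and with library total added to the block it was not. The numbers were taken as a pairing in these mice, which neither source states.

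Between genotypes, the Nlrc5 values of CD103-CD11b+ DCs did not overlap and were higher in Cbfb-cKO, by 0.77 (SE 0.21, edgeR adjusted p = 0.0977), which was not called. DESeq2 called this difference (0.78, adjusted p = 0.0157), and the adjusted p over all alternatives ran from 0.0157 to 0.217. In CD103+CD11b- DCs the genotypes overlapped and the log2 fold change was 0.47 (SE 0.21, edgeR adjusted p = 0.464). The difference of the genotype effects between subsets was 0.30 (SE 0.30, edgeR adjusted p = 0.831).

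Regulators of class I genes other than Nlrc5 were taken from a list of 14. Irf1, an interferon-induced factor that acts on class I promoters, was higher in CD103-CD11b+ than in CD103+CD11b- DCs of WT mice (0.73, edgeR adjusted p = 0.0419), with 253, 522 and 378 against 248, 245 and 204 CPM, which is the direction opposite to that of Nlrc5, though the call was lost in 11 of 20 alternatives (adjusted p of up to 0.199). Irf1 was not called between subsets in Cbfb-cKO mice (-0.046, edgeR adjusted p = 0.916). Rfx5, a DNA-binding subunit of the complex through which NLRC5 acts, was at 56.3 to 93.8 CPM over all samples and was not called in any comparison.

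Of the remaining regulators, Rela, an NF-kB subunit, was higher in CD103-CD11b+ DCs of WT mice (0.42, edgeR adjusted p = 0.0389) and Stat2 was lower (-0.44, 0.00767). In Cbfb-cKO mice Irf9, the DNA-binding subunit of an interferon-activated complex, was lower in that subset (-0.42, edgeR adjusted p = 0.00842), as was Rfxap, another subunit of the RFX complex (-0.87, 0.0201).

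Tap1 and Tap2, the paired chains of the peptide transporter, were both lower in CD103-CD11b+ than in CD103+CD11b- DCs, in WT and in Cbfb-cKO mice. For Tap1 the WT levels were 640.5, 530.4 and 436 CPM in CD103+CD11b- and 372, 314 and 317 CPM in CD103-CD11b+ DCs. In Cbfb-cKO mice they were 592, 633 and 768 and 347, 364 and 463 CPM. The subsets did not overlap in either genotype. The log2 difference was -0.68 (SE 0.17, edgeR adjusted p = 0.0201) in WT and -0.76 (SE 0.17, edgeR adjusted p = 0.0104) in Cbfb-cKO mice. The WT call was lost in 4 of 20 alternatives, each with 1 WT sample left out, at adjusted p of up to 0.0812, and the Cbfb-cKO call held in all 21.

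Tap2 was at 179.5, 163 and 147 CPM in WT CD103+CD11b- DCs and 116, 110.3 and 112 CPM in WT CD103-CD11b+ DCs. In Cbfb-cKO mice the levels were 187, 180.4 and 217 and 117, 109 and 141 CPM. Every CD103+CD11b- sample was above every CD103-CD11b+ sample. The log2 difference was -0.53 (SE 0.12, edgeR adjusted p = 0.0155) in WT and -0.67 (SE 0.12, edgeR adjusted p = 0.00393) in Cbfb-cKO mice, and the WT call was lost without replicate 1 or replicate 2 of the WT CD103+CD11b- DCs (adjusted p = 0.0668 and 0.0564).

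Between genotypes neither transporter gene was called. In CD103+CD11b- DCs the log2 fold change of Tap1 was 0.31 (SE 0.17, edgeR adjusted p = 0.606) and that of Tap2 was 0.25 (SE 0.12, edgeR adjusted p = 0.523), although the 3 Cbfb-cKO samples of Tap2 were all above the 3 WT samples. In CD103-CD11b+ DCs the values were 0.23 (SE 0.17, edgeR adjusted p = 0.511) for Tap1 and 0.12 (SE 0.12, edgeR adjusted p = 0.664) for Tap2. In WT CD103+CD11b- DCs the highest level of both genes was in the sample with the smallest total and the lowest in that with the largest total of this group, and with library total as a covariate, added after the data had been seen, both remained called lower in CD103-CD11b+ DCs of both genotypes.

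Tapasin, encoded by Tapbp, bridges TAP and the empty heavy chain, and TAPBPR, encoded by Tapbpl, edits the peptides that are loaded. Tapbpl was lower in CD103-CD11b+ than in CD103+CD11b- DCs of WT mice, while Tapbp was not called. For Tapbpl the WT levels were 103, 89.5 and 82.0 CPM in CD103+CD11b- and 72.4, 49.3 and 48.3 CPM in CD103-CD11b+ DCs, with no overlap, and the log2 difference was -0.68 (SE 0.16, edgeR adjusted p = 0.0181). In Cbfb-cKO mice the levels were 87.4, 101 and 104 and 78.8, 71.1 and 80.1 CPM. These groups did not overlap either, but the log2 difference of -0.35 (SE 0.16, edgeR adjusted p = 0.171) was not called. The WT call was lost in 5 of 20 alternatives, at an adjusted p of up to 0.0722.

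Between genotypes Tapbpl had a log2 fold change of 0.43 (SE 0.17, edgeR adjusted p = 0.214) in CD103-CD11b+ DCs, where the WT value of replicate 1 reached the Cbfb-cKO range, and of 0.10 (SE 0.16, edgeR adjusted p = 0.94) in CD103+CD11b- DCs. Without that WT sample the former was 0.67 and was called (edgeR adjusted p = 0.0438). Tapbp was at 284 to 453 and 344 to 430.2 CPM in WT and Cbfb-cKO CD103+CD11b- DCs and at 304 to 320.0 and 289 to 415 CPM in CD103-CD11b+ DCs. The ranges overlapped in each comparison, and its log2 differences lay between -0.21 and 0.092 over the 4 comparisons. Of the 7 other loading factors and ER chaperones listed, Uggt1, the glucosyltransferase that checks folding, was lower in CD103-CD11b+ DCs of WT (-0.43, edgeR adjusted p = 0.0353) and of Cbfb-cKO mice (-0.56, 0.0121), and Ganab, a glucosidase, was lower in Cbfb-cKO mice (-0.33, 0.0384). None of the 7 was called between genotypes.

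Psmb8 and Psmb9 encode 2 of the catalytic subunits that replace their constitutive partners in the immunoproteasome. Psmb9 was lower in CD103-CD11b+ than in CD103+CD11b- DCs in both genotypes. In WT mice its levels were 227, 198 and 169 CPM in CD103+CD11b- and 127, 107 and 119.5 CPM in CD103-CD11b+ DCs. In Cbfb-cKO mice they were 239.7, 234 and 295 and 135, 128 and 179 CPM. The subsets did not overlap within a genotype. The log2 difference was -0.75 (SE 0.16, edgeR adjusted p = 0.0112) in WT and -0.80 (SE 0.16, edgeR adjusted p = 0.00629) in Cbfb-cKO mice, and these calls held in all alternatives, 20 in WT and 21 in Cbfb-cKO mice.

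Psmb8 was at 143, 126 and 105 CPM in WT CD103+CD11b- and 91.6, 89.3 and 93.4 CPM in WT CD103-CD11b+ DCs. These did not overlap, but the log2 difference of -0.44 (SE 0.18, edgeR adjusted p = 0.104) was not called. In Cbfb-cKO mice the levels were 131, 127 and 172 and 97.9, 105 and 148 CPM, which overlapped (-0.30, edgeR adjusted p = 0.275). With library total as a covariate both differences were called, at -0.49 (edgeR adjusted p = 0.0114) and -0.34 (0.0469). The latter was not called when the replicate block was added to library total.

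Between genotypes both genes were uncalled in both subsets, although Psmb9 did not overlap in either. Its log2 fold change was 0.37 (SE 0.16, edgeR adjusted p = 0.425) in CD103+CD11b- and 0.32 (SE 0.16, edgeR adjusted p = 0.326) in CD103-CD11b+ DCs. For Psmb8 the values were 0.21 (SE 0.18, edgeR adjusted p = 0.814) and 0.35 (SE 0.18, edgeR adjusted p = 0.336). The highest Cbfb-cKO value of Psmb8 and of Psmb9 in each subset was that of replicate 3, the sample with the smallest total, and the part of depth in these differences was not tested beyond the fit with library total.

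Set against its constitutive partner, the count per kb of Psmb9 over that of Psmb6 was 1.45 ± 0.175 in WT and 1.80 ± 0.0968 in Cbfb-cKO CD103+CD11b- DCs, and 1.03 ± 0.161 in WT and 1.32 ± 0.0186 in Cbfb-cKO CD103-CD11b+ DCs (mean ± SD, n = 3). The size of such a ratio depends on the merged exon lengths, which are the same in every sample, so only its differences between groups are read. The ratio was higher in Cbfb-cKO samples and lower in CD103-CD11b+ DCs, with no overlap in any of the 4 comparisons. Each gave p = 0.1 in a two-sided exact permutation test of log2 ratios, the smallest that 3 against 3 samples allow, and 0.171 after adjustment over the 12 ratio comparisons, so this test cannot reach a threshold of 0.05 here. The ratio of Psmb10, the third induced subunit, over Psmb7 went the other way between subsets, at 2.45 ± 0.0797 in WT CD103+CD11b- against 4.12 ± 0.334 in WT CD103-CD11b+ DCs, and at 2.07 ± 0.111 against 3.61 ± 0.46 in Cbfb-cKO mice, without overlap (exact permutation p = 0.1 each). The log2 difference of this ratio between Cbfb-cKO and WT was -0.25 without overlap in CD103+CD11b- DCs (exact permutation p = 0.1) and -0.20 with overlap in CD103-CD11b+ DCs (p = 0.2). Psmb10 itself was not called between subsets (0.11 and 0.17 on the log2 scale in WT and Cbfb-cKO mice), while Psmb7 was lower in CD103-CD11b+ DCs of both (-0.64, edgeR adjusted p = 0.0261, and -0.61, 0.0308).

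Psmb8 over Psmb5 was 1.96 ± 0.0593 and 1.79 ± 0.271 in the WT subsets and 2.11 ± 0.165 and 2.15 ± 0.309 in the Cbfb-cKO subsets, which overlapped between subsets in both genotypes (exact permutation p = 0.4 and 1). The constitutive subunits Psmb5 and Psmb6 were not called in any comparison, at 11.4 to 21.4 CPM for Psmb5 and 50.0 to 88.4 CPM for Psmb6.

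**Figure D4:**
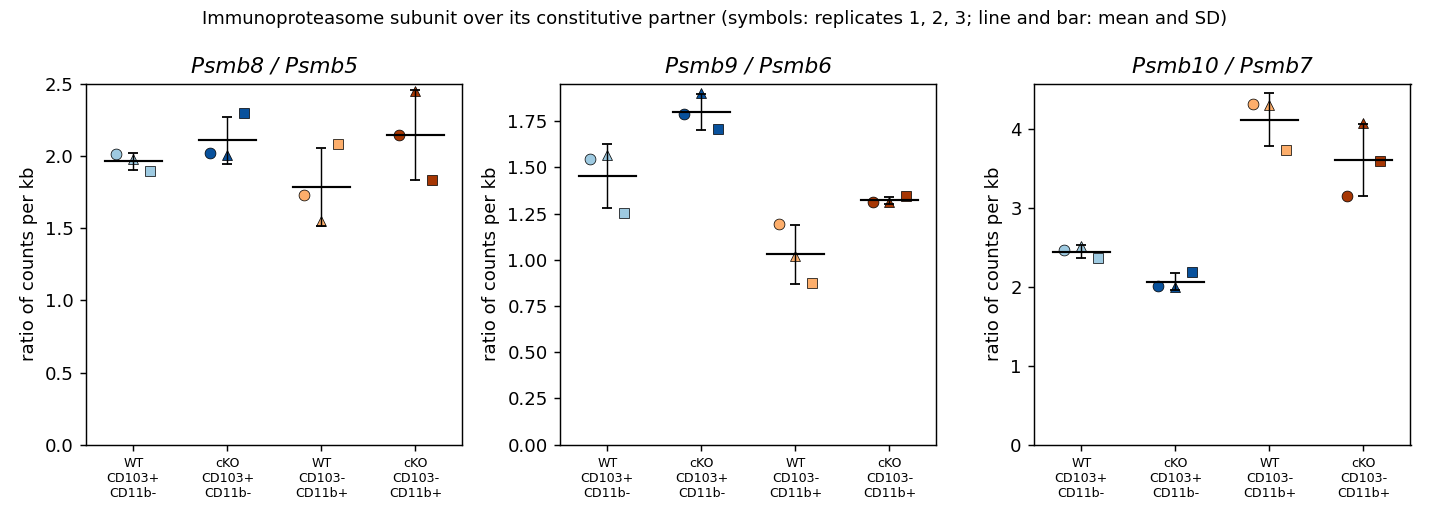
Ratio of counts per kb of exon (y axis from 0) of each immunoproteasome subunit to its constitutive partner in the 12 samples by group (x axis), with symbols for replicates 1 to 3 and the mean and SD over 3 samples. Psmb9 over Psmb6 had a mean of 1.80 in Cbfb-cKO CD103+CD11b- and of 1.03 in WT CD103-CD11b+ DCs, and Psmb10 over Psmb7 stood at 3.16 to 4.32 in CD103-CD11b+ and at no more than 2.52 in CD103+CD11b- DCs.

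Of the 19 other proteasome genes listed, 18 had a log2 difference below 0 between CD103-CD11b+ and CD103+CD11b- DCs in both genotypes, with medians of -0.40 in WT and -0.35 in Cbfb-cKO mice, where 54.1% and 56.1% of all tested genes were above 0. In WT mice 5 were called lower, beside 7.25% of all genes, namely the alpha-ring subunits Psma4 (-0.66, edgeR adjusted p = 0.0263) and Psma5 (-0.66, 0.0242), the beta-ring subunit Psmb7, the assembly factor Pomp (-0.48, 0.0235) and, named after its values were seen, the beta-ring subunit Psmb4 (-0.44, 0.0424). In Cbfb-cKO mice 3 were called lower, beside 7.06% of all genes, namely Psmb7, Psmb3 (-0.57, edgeR adjusted p = 0.046) and Pomp (-0.70, 0.00289). None of the 19 was called between genotypes by edgeR (1 and 2 at an unadjusted p under 0.05 in CD103+CD11b- and CD103-CD11b+ DCs), where 18 and 17 of them had a log2 fold change above 0, with medians of 0.19 and 0.25, beside 46.7% and 44.8% of all genes above 0.

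Erap1, the ER aminopeptidase that trims peptides to class I length, had the smallest coefficient of variation of the members in CPM, 9.07% over the 12 samples. Its levels were 193 to 224 CPM in WT and 229 to 253 CPM in Cbfb-cKO CD103+CD11b- DCs, and 193 to 216 and 221 to 255 CPM in CD103-CD11b+ DCs. The Cbfb-cKO samples were above the WT samples in both subsets, by 0.20 (SE 0.10, edgeR adjusted p = 0.549) and 0.16 (SE 0.10, edgeR adjusted p = 0.426), without a call. Between subsets the groups overlapped, with log2 differences of -0.019 and -0.059, and the first of these was above 0 with RLE normalization, with DESeq2 and with genes of 5 or more counts in every sample (0.012, 0.014 and 0.033). Of the 9 genes of peptide trimming and ER export listed, Nrd1, a peptidase named after its values were seen, was lower in CD103-CD11b+ DCs of WT mice (-0.31, edgeR adjusted p = 0.0438), and none was called in Cbfb-cKO mice or between genotypes.

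B2m, the light chain shared by class I molecules and CD1d, was not called in any comparison. It was at 323, 237 and 181 CPM in WT CD103+CD11b- DCs, 232, 254 and 375 CPM in Cbfb-cKO CD103+CD11b- DCs, 200.4, 302 and 279.5 CPM in WT CD103-CD11b+ DCs and 244, 261 and 470.1 CPM in Cbfb-cKO CD103-CD11b+ DCs. Every pair of groups compared overlapped. The log2 fold change between genotypes was 0.22 (SE 0.30, edgeR adjusted p = 0.913) in CD103+CD11b- and 0.32 (SE 0.30, edgeR adjusted p = 0.619) in CD103-CD11b+ DCs. Without the Cbfb-cKO replicate 3 of the subset in question these values were -0.021 and -0.045.

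The raw counts of B2m were close to constant, at 905 to 1120 over samples whose totals differed by 2.71-fold. Its coefficient of variation over the 12 samples was 7.07% in raw counts and 28.5% in CPM, while the totals had 26.4%. Within groups, its log2 count rose by 0.24 per unit of log2 total, where a count in proportion to depth would rise by 1, and the median over 7628 genes with a mean of at least 100 counts was 1.13. B2m was at the 0.275th percentile of these genes. The heavy chains H2-K1 and H2-D1 had slopes of 0.33 and 0.40, and among the other members the slope was 0.65 for Tapbp, 0.69 for Psmb8, 0.78 for Tap1, 0.79 for Psmb9, 0.88 for Tap2, 1.08 for Tapbpl, 1.09 for Nlrc5 and 1.17 for Cd1d1, with Erap1 between Tap2 and Tapbpl. B2m had the most reads per base of the members, 1.18 counts per exon base on average. The authors removed duplicate reads before counting, and the part of that step in these slopes was not tested. Within groups, the CPM of B2m, H2-K1 and H2-D1 was thus lower in deeper samples.

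**Figure D5:**
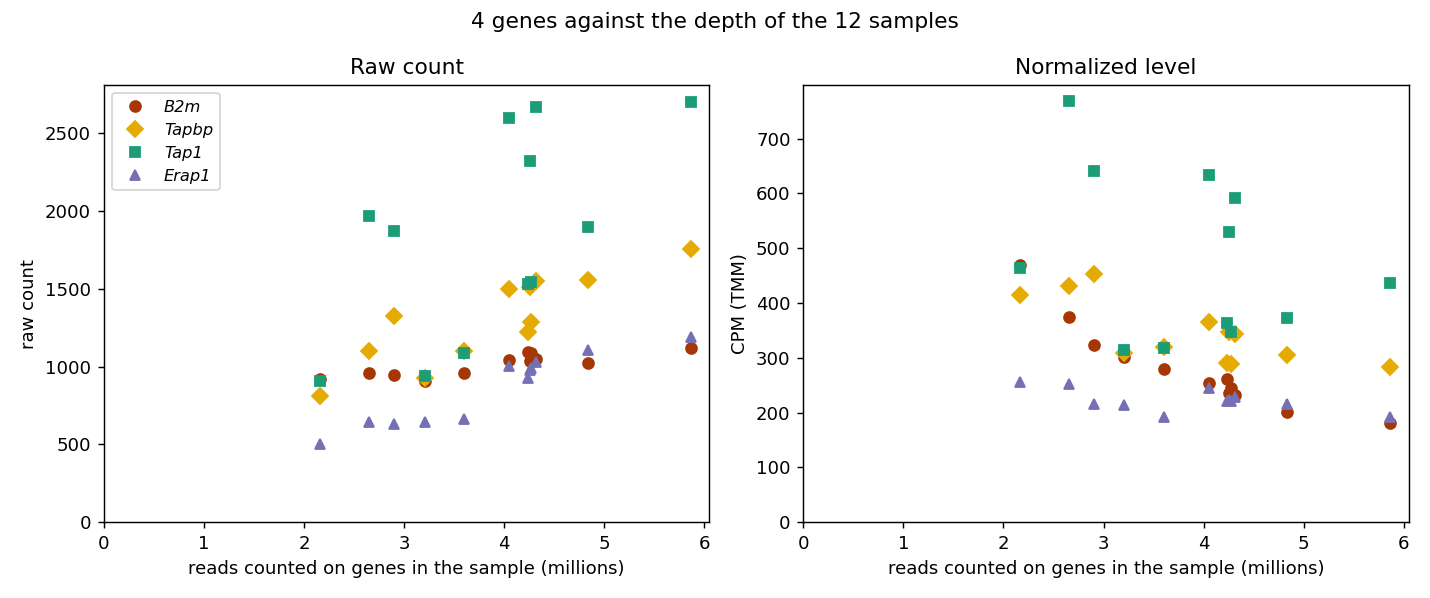
Raw count (left) and TMM-scaled CPM (right) of B2m, Tapbp, Tap1 and Erap1 (y axes from 0) against the reads counted on genes in each of the 12 samples (x axis, in units of 1000000 reads). The raw count of B2m stayed within 905 to 1120 while its CPM was 470.1 in the sample with the smallest total and 181 in that with the largest, and the raw count of Erap1 was larger in deeper samples.

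The heavy chains were likewise not called in any comparison. H2-K1 was at 319 to 529 CPM in the 6 WT and 393 to 769 CPM in the 6 Cbfb-cKO samples, and H2-D1 at 271 to 415 and 314 to 567 CPM. Heavy chain genes are near-identical in parts, so reads between them may have been split or dropped. Of the 12 heavy chain and class I-like genes listed, 0 were called between genotypes in either subset and 0 between subsets in WT mice. In Cbfb-cKO mice Fcgrt, the neonatal Fc receptor heavy chain, was lower in CD103-CD11b+ DCs (-0.88, edgeR adjusted p = 0.0174), beside the low counts of Cd1d2.

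Over the 74 other pathway genes, 0 were called between genotypes in CD103+CD11b- DCs (6 at an unadjusted p under 0.05, and 0 by DESeq2) and 1 in CD103-CD11b+ DCs, beside the 1.02% and 1.61% of all genes given above. Between subsets 3 were higher and 11 lower in CD103-CD11b+ DCs of WT mice, and 2 higher and 9 lower in those of Cbfb-cKO mice, beside the 19.1% and 16.4% of all genes called in either direction given above. The WT count rests on single samples, since 2 genes in all were called without replicate 1 or without replicate 2 of the WT CD103+CD11b- DCs, and the Cbfb-cKO count ran from 5 without replicate 1 or 3 of its CD103+CD11b- or replicate 1 or 2 of its CD103-CD11b+ DCs to 20 without replicate 3 of the latter. Single calls that held in all alternatives included those of Ap3d1 in both genotypes, Stat2 in WT and Irf9 and Pomp in Cbfb-cKO mice. Calls lost in at least 9 alternatives included those of Rela, Irf1, Psmb4 and Nrd1 in WT mice and of Psmb3, Ganab and Cd1d2 in Cbfb-cKO mice. The median log2 difference between genotypes was 0.12 in CD103+CD11b- and 0.17 in CD103-CD11b+ DCs, and that between subsets was -0.23 in WT and -0.18 in Cbfb-cKO mice. With the same numbers in the labels as a replicate block, taken as a pairing of samples only between the subsets of Cbfb-cKO mice, the pathway genes called there numbered 20 in place of 11.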

How the data were processed

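RNA-seq libraries of 12 sorted gut DC samples in 4 groups of 3 were used. The authors sorted small numbers of cells, made cDNA by a RamDA-seq protocol, trimmed reads, mapped them to mm10 with STAR 2.7, discarded duplicates and reads with a mapping quality under 5, and assigned the rest to genes with htseq-count, ignoring strand. They deposited whole-number counts per gene, not normalized, of 2161929 to 5863484 per sample after the 5 summary lines were left out. The members had 42 counts or more in every sample. Relative counting error is largest for Cd1d1, at 42 to 141 counts in WT CD103+CD11b- samples.

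Symbols and positions came from GENCODE M21 (GRCm38), which held 99.7% of the 53801 identifiers, and promoters from RefSeq (GRCm38.p6). The 20580 genes that reached 5 counts in 1 sample or more were tested with edgeR 4.0.16 (limma 3.58.1, R 4.3.3), with TMM scaling and the quasi-likelihood F-test in 1 model of the 4 groups, which shares 1 estimate of spread. P-values were adjusted by Benjamini-Hochberg. Ratios were compared by two-sided exact permutation tests. Tables and plots were made with pandas 2.3.3, SciPy 1.17.1 and matplotlib 3.10.9. Simulated counts with known changes were used to test the procedure. Alternatives were RLE normalization, DESeq2 1.42.0, other filters, a replicate block, 6-sample fits, leaving out each sample, and library total as a covariate, the last chosen after the data had been seen. Same-numbered samples deviated together, with r of 0.15, 0.43 and 0.42, between the subsets in Cbfb-cKO mice. The numbers were therefore taken as a pairing there and not in the other comparisons, where at least 1 pair was at 0.1 or below. That pairing is an assumption, since neither source states it. Replicate 2 of WT and Cbfb-cKO CD103-CD11b+ DCs, which come from different mice, had an r of 0.53.

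The members and gene lists were chosen with earlier results of these data known. All 10 members were described in every comparison. Of the other pathway genes, those called were named, up to 12 per comparison by smallest p (with Psmb4 and Nrd1 added once their values were seen), with Psmb5, Psmb6, Psmb7, Psmb10, H2-K1, H2-D1, Cd1d2, Irf1 and Rfx5 whatever their values, and the 5 genes with the highest correlation with Cd1d1. Results for some listed genes are not reported here.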

Additional observations from a re-analysis of the deposited data

Results flagged for a closer look

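The effect of Cbfb loss on Cd1d1 differed between the subsets by 2.04 on the log2 scale, higher in CD103-CD11b+ DCs (SE 0.35, edgeR quasi-likelihood interaction term, adjusted p = 0.0339). The log2 fold change between Cbfb-cKO and WT was 2.38 in CD103-CD11b+ and 0.34 in CD103+CD11b- DCs, and the 3 Cbfb-cKO CD103-CD11b+ samples were all above the other 9 samples.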

How the results depend on the processing

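Cd1d1 in Cbfb-cKO CD103-CD11b+ DCs, and Tap1, Tap2 and Psmb9 between the subsets of Cbfb-cKO mice, kept direction and call in every alternative run. With DESeq2, 675 and 1175 genes were called between genotypes in CD103+CD11b- and CD103-CD11b+ DCs and 504 for the difference of effects, against 210, 331 and 134. DESeq2 called 2 members in CD103-CD11b+ DCs, and 3 and 1 pathway genes there and for the difference of effects. With no filter the gene counts were 320 in CD103+CD11b- DCs and 205 for the difference of effects, with 2 pathway genes in CD103-CD11b+ DCs and 9 between WT subsets. With 5 or more counts in every sample 580 genes and 3 pathway genes were called in CD103-CD11b+ DCs, and filterByExpr also gave 3 pathway genes. With fits to the 6 samples of a comparison, 27 genes and 0 pathway genes were called in CD103-CD11b+ DCs, 1 pathway gene in CD103+CD11b- DCs, 3 members and 8 pathway genes between WT subsets, and 7 pathway genes between Cbfb-cKO subsets. With library total as a covariate, 2 pathway genes were called in CD103-CD11b+ DCs, 22 between WT subsets, 18 between Cbfb-cKO subsets, and 0 members for the difference of effects. The cause of these changes was not tested.

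With the replicate number as a block, 522 and 854 genes were called between genotypes in CD103+CD11b- and CD103-CD11b+ DCs and 328 for the difference of effects. The block called 2 members and 4 pathway genes in CD103-CD11b+ DCs, 1 pathway gene for the difference of effects and 25 between WT subsets, and with it Nlrc5 was called in CD103-CD11b+ DCs (0.81, edgeR adjusted p = 0.0245) and Psmb8 between WT subsets (-0.43, 0.0263). In these comparisons the samples share only a number, with correlations of deviations from -0.15 to 0.53. Between Cbfb-cKO subsets, where the numbers were taken as a pairing, the block called 20 pathway genes, and Nlrc5 besides the 4 members. It changed no other call of a member there. With library total added to the block, 24 pathway genes were called and Nlrc5 was not.

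Leaving out 1 sample at a time gave 46 to 241 genes in CD103+CD11b- DCs, 121 to 517 in CD103-CD11b+ DCs, 29 to 210.0 for the difference of effects, 1410.0 to 4493 between WT subsets and 2126 to 3673 between Cbfb-cKO subsets. Members called ran from 1 to 2 in CD103-CD11b+ DCs, 0 to 1 for the difference of effects and 1 to 5 between WT subsets. Pathway genes called ran from 1 to 2 in CD103-CD11b+ DCs, 2 to 19 between WT subsets and 5 to 20 between Cbfb-cKO subsets. Of the 5 genes most like Cd1d1, 2 were also chosen by rank correlation. The ratio differences kept their direction except Psmb8 over Psmb5 between Cbfb-cKO subsets, which ran from -0.084 to 0.13.

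Signs turned only in values that were not called. Tapbp turned to -0.016 in CD103+CD11b- and -0.018 in CD103-CD11b+ DCs with library total, and its difference of effects to -0.010 (RLE), -0.012 (DESeq2), -0.010 (5 counts in every sample), -0.021 (block) and -0.0018 (library total). Erap1 between WT subsets turned to 0.012 (RLE), 0.014 (DESeq2) and 0.033 (5 counts in every sample), and B2m between WT subsets to -0.018 with library total. Leaving out samples gave -0.071 to 0.27 and -0.10 to 0.20 for Tapbp in CD103+CD11b- and CD103-CD11b+ DCs, -0.021 to 0.46 and -0.045 to 0.51 for B2m in the same, and -0.16 to 0.32 and -0.18 to 0.42 for B2m between WT and Cbfb-cKO subsets. For the difference of effects the ranges were -0.26 to 0.34 for B2m, -0.18 to 0.18 for Tapbp, -0.23 to 0.060 for Tap1, -0.21 to 0.069 for Psmb9, -0.054 to 0.30 for Psmb8 and -0.11 to 0.039 for Erap1. Standard errors on the log2 scale from 0.10 for Erap1 to 0.30 for B2m limit what could be called.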

Other observations

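The 7628 genes with a mean of at least 100 counts were split into 10 groups of equal size by reads per exon base, from group 1 with the fewest to group 10 with the most. The median within-group slope of log2 count on log2 library total fell along them, from 1.34 in group 1 through 1.17 in group 5 and 0.98 in group 9 to 0.79 in group 10. B2m, Tapbp, Tap1, Nlrc5 and Psmb9 lie in group 10, Tap2, Tapbpl and Psmb8 in group 9, Erap1 in group 8 and Cd1d1 in group 7. Nlrc5, with a slope of 1.09, lay above the median of its group, and B2m, with 0.24, below it. These slopes are across genes, which are not independent replicates.

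Marker lists of other cells are given as values here. In CD103+CD11b- DCs the 6-gene plasmacytoid DC list summed to 885 to 2014 CPM in WT and 391 to 734 CPM in Cbfb-cKO samples, and 6 of 6 genes had a log2 fold change below 0, none of them called by edgeR (6 at an unadjusted p under 0.05). The CD11b+ DC2 list summed to 366 to 626 CPM in WT and 84.1 to 137 CPM in Cbfb-cKO CD103+CD11b- DCs, with 3 of 6 genes called lower. In the same subset the T and NK cell list summed to 116 to 269.8 CPM in WT and 39.1 to 78.1 CPM in Cbfb-cKO samples, but 3 of its 8 genes had a log2 fold change above 0 and 4 below, with a median of -0.040, and the sum was carried by Cd8b1 and Cd4. The epithelial list there summed to 112 to 265 and 21.5 to 109 CPM, carried by Cdh1 and Epcam, of which Epcam was called lower, while 5 of the 8 genes had a log2 fold change above 0, with a median of 1.74. In CD103-CD11b+ DCs the epithelial list summed to 207 to 389.9 CPM in WT and 54.2 to 108 CPM in Cbfb-cKO samples, with 7 of 8 genes below 0, 0 called by edgeR and 5 at an unadjusted p under 0.05. The part of these cells in the members' values was not tested.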
